A study of Mus musculus with 24 samples.

Results

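The genes described are 9 ligands of the tumour necrosis factor (TNF) superfamily: Tnf, Lta, Ltb, Tnfsf8, Tnfsf9, Tnfsf10, Tnfsf13b, Tnfsf14 and Tnfsf15. They were chosen by name, with earlier results of these data known. Each symbol matched 1 of the 52636 genes in the count tables, of which 27584 had a count in any library. RNA-seq was done on mouse bone marrow derived macrophages, grown from marrow with M-CSF, in 24 libraries that fall into 8 groups of 3. The series concerns crosstalk within the IkB kinase family. The groups cross TBK1 genotype (TBK1-WT, wild type, or TBK1-cKD, which the series describes as a conditional knockout), IKKe genotype (control or IKKe knockout, gene Ikbke) and treatment (untreated, or 8 h of R837). The labels write these genotypes as TBK1-WT ∆control, TBK1-WT ∆IKKe, TBK1-cKD ∆control and TBK1-cKD ∆IKKe, where ∆IKKe stands for the IKKe knockout, written out in the figures. The alleles, the driver of the conditional knockout and the meaning of the control are not stated in the labels, and the growth protocol names wild-type C57BL/6N marrow for all libraries. The protocol states cells from 3 mice, each a biological replicate, and the labels do not say which libraries share a mouse.

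TNF superfamily ligands are mostly made as trimeric membrane proteins that bind receptors of the TNF receptor superfamily, and some are cut from the cell surface. Their receptors recruit TRAF or death domain adaptors and lead to NF-kB and MAP kinase activity or to cell death. R837 (imiquimod) is an agonist of Toll-like receptor 7, an endosomal sensor of single-stranded RNA. TBK1 and IKKe are related kinases known for activating IRF3 and interferon production and for restraining RIPK1-dependent cell death.

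Several libraries stood apart from their labels or groups. Counts per library ranged from 19727746 to 41323219. The difference in Tbk1 RNA was -0.45 ± 0.07 (log2) in untreated TBK1-cKD ∆control against TBK1-WT ∆control (adjusted p = 0.000674), and in the untreated libraries labelled TBK1-cKD ∆IKKe the difference was -0.20 ± 0.07, adjusted p = 0.0925. With R837 it was -0.36 ± 0.07, adjusted p = 0.0037, in TBK1-cKD ∆control and -0.08 ± 0.07, adjusted p = 0.445, in the group labelled TBK1-cKD ∆IKKe, so lower Tbk1 RNA did not pass the test in the latter with or without R837. Ikbke RNA in the untreated libraries labelled TBK1-cKD ∆IKKe was 76.8 to 81.3 CPM (counts scaled to library size), not below the 59.0 to 59.8 CPM of TBK1-WT ∆control, while TBK1-WT ∆IKKe held 34.5 to 35.9 CPM. With R837, libraries labelled TBK1-cKD ∆IKKe held 77.7, 82.7 and 259 CPM of Ikbke, TBK1-WT ∆control 406, 220.1 and 233 CPM, TBK1-WT ∆IKKe 77.0, 70.5 and 79.3 CPM and TBK1-cKD ∆control 239, 239 and 248 CPM. Replicate 3 of the first group and replicate 1 of the second thus stood above their groups. The group labelled TBK1-cKD ∆IKKe is therefore named by its label throughout. Replicate numbers only name libraries, in the order of deposit. Reads counted over the whole gene need not fall with a deleted part. Libraries also fell into 2 sets by the level of nuclear RNA (Malat1, Neat1, Xist, averaged in log2 CPM): 14 libraries at 8.95 to 9.47 and 10 at 5.24 to 5.63. All 12 untreated libraries were in the high set, together with the same 2 R837 libraries, so R837 and this level largely coincide. In R837 replicate 2 of TBK1-cKD ∆control, 14226 genes were detected, against 17948 and 17592 in the other replicates and at least 17519 in every other library. Its depth, 19727746 counts, was the lowest. At a similar depth of 20314401 counts, untreated replicate 2 of TBK1-WT ∆IKKe had 18427 genes detected. Why fewer genes were detected was not tested. This R837 library held 0 counts of Tnfsf8 and Tnfsf15 and 26 of Tnfsf14, and it enters the TBK1-cKD ∆control and interaction results. Macrophage markers (8 of 8 tested) summed to 15969 to 24103 CPM untreated and 27193 to 32874 CPM with R837, but they did not move together. Adgre1, Csf1r, Itgam, Fcgr1 and Cd14 were higher in every R837 library than in any untreated library. Cd68 was lower (1962 to 2302 CPM untreated, 968 to 1527 CPM with R837). Mertk was also lower (50.6 to 94.7 CPM untreated, 14.3 to 25.6 CPM with R837). Lyz2, the highest of these markers, overlapped (8799 to 15640 CPM untreated, 9825 to 16576 CPM with R837). Lymphocyte markers (3 of 11 tested, Gzma at 0) summed to 7.0 to 18.5 CPM untreated and 2.88 to 7.15 CPM with R837, and the sums of dendritic cell, neutrophil and mast cell markers were at most 4.33 CPM in any library. Stromal markers summed to 13.7 to 46.0 CPM untreated and 25.1 to 48.0 CPM with R837. The sums also moved with genotype in untreated libraries, between TBK1-WT ∆control and the group labelled TBK1-cKD ∆IKKe. Mast cell markers (of 4, only Kit was tested) went from 3.26 to 3.70 CPM to 1.0 to 1.30 CPM. Macrophage markers went from 15969 to 17107 CPM to 22822 to 24103 CPM. The part of these RNAs, and of the nuclear RNA level, in the results was not tested except where values are given.

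A group of 3 ligands form a cluster on chromosome 17 and 2 further pairs are neighbours, in GRCm38 with GENCODE M21. Ltb (17:35194439-35196320, plus strand), Tnf (17:35199381-35202007, minus strand) and Lta (17:35203165-35205351, minus strand) lie with 3060 and 1157 bases between them. Tnfsf9 (17:57105325-57107757) and Tnfsf14 (17:57189492-57194177) lie 81734 bases apart, and Tnfsf15 (4:63727084-63745113) and Tnfsf8 (4:63831308-63861347) 86194 bases apart. Tnfsf10 is at 3:27317028-27342427 and Tnfsf13b at 8:10006467-10039072. Tnfsf9 overlaps the antisense lincRNA Gm11110, Tnfsf13b the antisense gene Gm44789, Lta the microRNA gene Mir6974 and Ltb Mir6973a. As the kit leaves strand unmarked, reads from the antisense partners cannot be told apart from the ligands.

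Promoter sequence is shown for the cluster and for Tnfsf14, which moved the opposite way after R837. The windows come from RefSeq (GRCm38.p6), which matched 8 of 9 members in 9 windows (Tnfsf9 is named only), and are printed 5′ to 3′ on the gene's strand up to the base before the gene or its RefSeq start. Capitals mark matches to TATAAA (Tnf and Lta), the NF-kB consensus (Ltb, read from the opposite strand as GGGACTTTCC) and TGANTCA, an AP-1 type motif (Tnfsf14).
Tnf, chr17:35202008-35202257, minus strand: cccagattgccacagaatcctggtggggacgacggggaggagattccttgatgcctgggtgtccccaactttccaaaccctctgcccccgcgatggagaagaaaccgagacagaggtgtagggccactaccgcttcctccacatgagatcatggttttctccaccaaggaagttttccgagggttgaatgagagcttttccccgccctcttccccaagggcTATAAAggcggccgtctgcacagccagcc
Lta, chr17:35205352-35205601, minus strand: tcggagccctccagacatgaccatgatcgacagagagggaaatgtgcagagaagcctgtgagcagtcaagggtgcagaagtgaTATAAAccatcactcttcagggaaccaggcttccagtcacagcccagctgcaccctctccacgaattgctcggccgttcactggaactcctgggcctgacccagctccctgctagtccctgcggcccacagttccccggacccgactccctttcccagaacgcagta
Ltb, chr17:35194257-35194438, plus strand: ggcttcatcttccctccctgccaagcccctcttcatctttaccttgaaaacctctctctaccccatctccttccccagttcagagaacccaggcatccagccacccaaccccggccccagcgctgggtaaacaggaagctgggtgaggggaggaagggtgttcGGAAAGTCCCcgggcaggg
Tnfsf14, chr17:57194182-57194431, minus strand: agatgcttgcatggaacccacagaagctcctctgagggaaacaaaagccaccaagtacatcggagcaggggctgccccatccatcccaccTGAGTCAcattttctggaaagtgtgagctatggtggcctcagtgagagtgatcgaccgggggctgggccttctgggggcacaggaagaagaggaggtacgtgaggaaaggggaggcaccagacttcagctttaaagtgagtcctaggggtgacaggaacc

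The 5 motifs were searched on both strands over 300 bases: the NF-kB consensus, GAAANNGAAA (a pattern found in interferon-responsive elements), TGANTCA, TGACGTCA and TATAAA. In 32851 windows of the same length, 8.46% held the NF-kB consensus, 3.44% GAAANNGAAA, 7.81% TGANTCA, 1.79% TGACGTCA and 13.6% TATAAA. Counted from the RefSeq start, the Ltb match starts at -87 and is the only NF-kB consensus match among the members with a window. The TATAAA matches start at -29 in Tnf and -167 in Lta, and the TGANTCA match at -160 in Tnfsf14. Tnfsf13b, which also fell, has 2 overlapping windows that share a single TGANTCA match, at -127 from the second start and downstream of the first. GAAANNGAAA lies at -16 of the second. These matches are descriptions of letters, not of binding.

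Levels between genes are compared per length, in the deposited RPKM (reads scaled by gene length and library depth). Tnf was highest in each of the 8 groups and Tnfsf9 next. In untreated TBK1-WT ∆control, Tnf stood at 12.1 ± 0.492 RPKM (SD, n = 3) and Tnfsf9 at 5.05 ± 0.241 RPKM. Tnfsf14, LIGHT, followed at 1.56 ± 0.173 RPKM, ahead of Tnfsf13b at 0.725 ± 0.0197 and Tnfsf8 at 0.634 ± 0.0174 RPKM. The other members held lower levels, down to Lta at 0.0286 ± 0.0495 RPKM. After R837 in the same genotype Tnf reached 87.8 ± 9.40 RPKM and Tnfsf9 12.3 ± 1.19 RPKM, and Ltb was next at 0.961 ± 0.331 RPKM. In the R837 libraries labelled TBK1-cKD ∆IKKe, Tnfsf15 came next after these at 1.47 ± 0.0935 RPKM, where in TBK1-WT ∆control with R837 it stood at 0.194 ± 0.0586 RPKM.

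**Figure D1:**
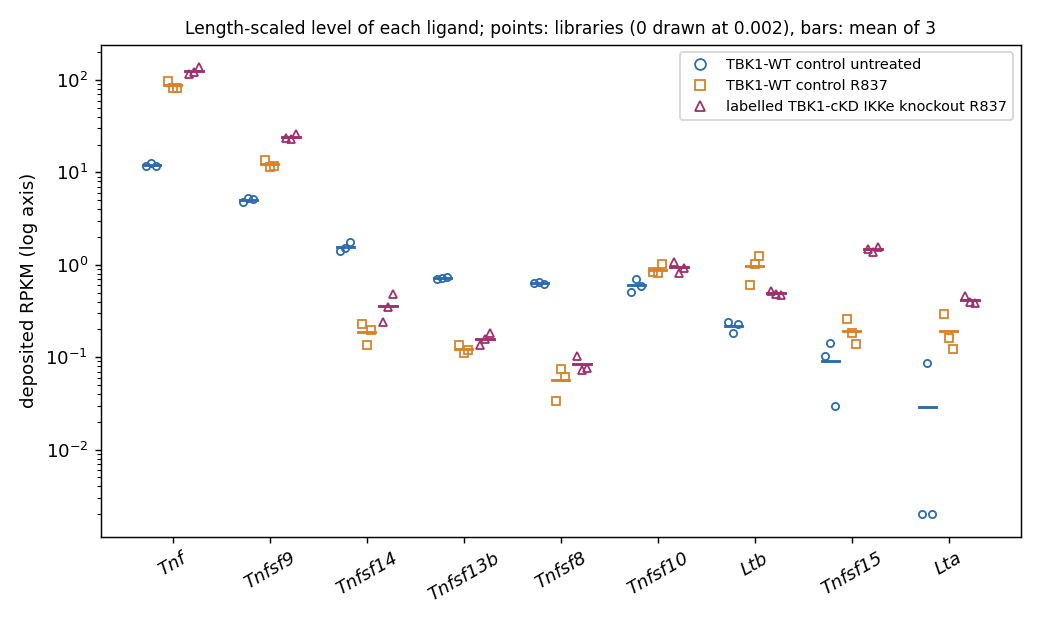
Deposited RPKM (log axis) of the 9 ligands in 3 groups, with a point per library, a bar at the mean of 3. Tnf is the highest ligand in each group shown, and Tnfsf15 rises above 1 RPKM in the R837 libraries labelled TBK1-cKD ∆IKKe.

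With R837, 6 of 9 ligands rose and 3 fell in TBK1-WT ∆control: Tnf, Lta, Ltb, Tnfsf9, Tnfsf10 and Tnfsf15 rose, and Tnfsf8, Tnfsf13b and Tnfsf14 fell. In the fit, edgeR's quasi-likelihood test with Benjamini-Hochberg adjustment over 14681 tested genes, 62.6% of all genes were called in this comparison (30.6% higher, 32% lower), and all 9 members passed the count filter. The members' median log2 change was 1.26, against -0.04 for all genes. In TBK1-WT ∆IKKe the counts were 4 higher and 3 lower (background 70.2%, 32.4% higher and 37.8% lower), in TBK1-cKD ∆control 6 and 3 (background 69.1%, 31.6% higher and 37.5% lower), and in the group labelled TBK1-cKD ∆IKKe 5 and 3 (background 66.5%, 31.6% higher and 34.8% lower). Medians were 0.77, 1.62 and 1.63. In bulk RNA, fewer cells expressing a gene and less RNA per cell cannot be told apart. Restricted to libraries of the high nuclear RNA level, which leaves a single R837 library in TBK1-WT ∆control and in the group labelled TBK1-cKD ∆IKKe, whose spread is then borrowed from the other groups, the response was again 6 higher and 3 lower in TBK1-WT ∆control and 5 and 3 in the group labelled TBK1-cKD ∆IKKe.

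**Figure D2:**
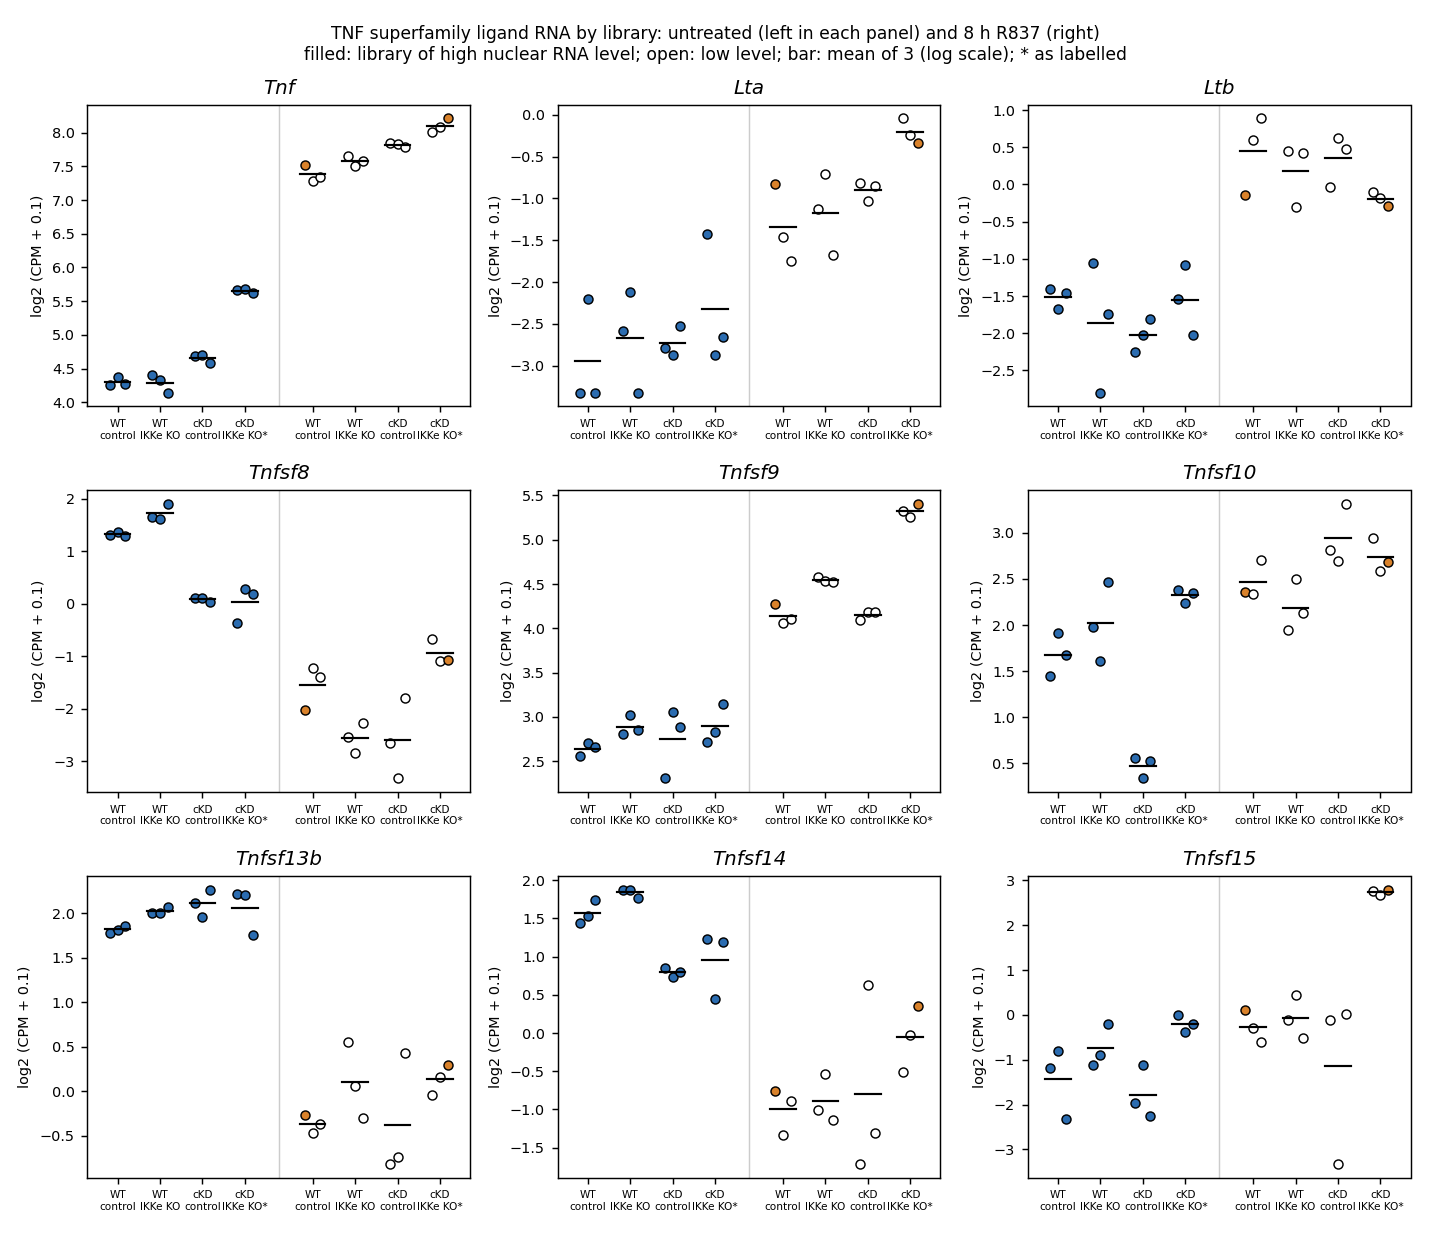
Levels of the 9 ligands in log2 CPM, with a small constant added, one panel per gene, with a point per library, bars at the mean of 3 and filled points for libraries of the high nuclear RNA level. Untreated libraries are on the left and R837 libraries on the right of each panel. Tnf, Lta, Ltb and Tnfsf9 lie higher with R837 in every genotype, and Tnfsf8, Tnfsf13b and Tnfsf14 lower.

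Tnf, the founding inflammatory cytokine of the family, had the highest CPM of the members in every group. In TBK1-WT ∆control the 3 untreated libraries held 19.1, 20.7 and 19.2 CPM of Tnf and the 3 R837 libraries 184, 156 and 161 CPM. The TBK1-WT ∆IKKe libraries held 21.1, 20.1 and 17.6 CPM untreated and 201, 182 and 192 CPM with R837. Every R837 library lay above every untreated library of its genotype. Libraries of TBK1-cKD ∆control gave 25.8, 26.0 and 23.8 CPM of Tnf untreated and 229.6, 226 and 219.7 CPM with R837. Those labelled TBK1-cKD ∆IKKe gave 50.6, 51.2 and 49.0 CPM and 257, 271 and 296 CPM. Tnf rose in all 4 genotypes: 8.50-fold in TBK1-WT ∆control (log2 3.09 ± 0.08, adjusted p = 3.34e-18), with log2 changes of 3.29 ± 0.08 in TBK1-WT ∆IKKe, 3.16 ± 0.08 in TBK1-cKD ∆control and 2.45 ± 0.08 in the group labelled TBK1-cKD ∆IKKe. With only the high-level libraries the TBK1-WT ∆control change was 3.23 ± 0.07. Untreated TBK1-cKD ∆control was higher than TBK1-WT ∆control by 0.36 ± 0.08, adjusted p = 0.00525, and the untreated libraries labelled TBK1-cKD ∆IKKe by 1.35 ± 0.07, adjusted p = 1.74e-11, 2.56-fold. Macrophage markers in these 3 untreated groups summed to 15969 to 17107 CPM in TBK1-WT ∆control, 17188 to 18561 CPM in TBK1-cKD ∆control and 22822 to 24103 CPM in the labelled group, and the part of this in Tnf was not tested. Those untreated libraries also exceeded untreated TBK1-cKD ∆control (1.0 ± 0.07, adjusted p = 2.34e-09, a comparison added after the values were seen). After R837 the differences from TBK1-WT ∆control were 0.43 ± 0.07, adjusted p = 0.000553 in TBK1-cKD ∆control and 0.71 ± 0.07, adjusted p = 7.71e-08 in the group labelled TBK1-cKD ∆IKKe. The R837 response of that group differed from that of TBK1-WT ∆control by -0.64 ± 0.10, adjusted p = 9.71e-05. TBK1-WT ∆IKKe did not pass the test with R837 (0.19 ± 0.07, adjusted p = 0.229), but did with a term for the nuclear RNA level (0.26, adjusted p = 0.00333) and without the high-level R837 libraries (0.27, adjusted p = 0.00827).

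Lta, which encodes lymphotoxin alpha, and Ltb, which encodes the membrane partner of lymphotoxin alpha, were low. Lta ranged from 0 to 0.271 CPM over the 12 untreated libraries (0 to 10 counts) and 0.199 to 0.870 CPM over the 12 R837 libraries (5 to 24 counts). Ltb ranged from 0.0436 to 0.381 CPM and 0.707 to 1.75 CPM. Both rose in all 4 genotypes, with no overlap between treated and untreated libraries of a genotype: Lta by 2.84 ± 0.78, adjusted p = 0.0034 in TBK1-WT ∆control and Ltb by 2.36 ± 0.40, adjusted p = 2.92e-05. Untreated TBK1-WT ∆control held 0, 5 and 0 counts of Lta, and without its replicate 2 the fitted change was 6.36, adjusted p = 0.000314, which is against libraries at 0 and depends on the prior count. In the group labelled TBK1-cKD ∆IKKe the Lta change was 3.86, adjusted p = 0.000256, without untreated replicate 1. With all libraries, the lowest and highest changes over genotypes were 2.52 ± 0.60 and 3.04 ± 0.77 for Lta, and 1.63 ± 0.43 and 3.02 ± 0.46 for Ltb. No genotype difference of Lta or Ltb passed the test. After R837 the group labelled TBK1-cKD ∆IKKe held 0.769 ± 0.0911 CPM of Lta (SD, n = 3) against 0.309 ± 0.139 CPM in TBK1-WT ∆control (1.24 ± 0.52, adjusted p = 0.0758), and 0.778 ± 0.0553 CPM of Ltb against 1.32 ± 0.478 CPM (-0.74 ± 0.36, adjusted p = 0.126). Without R837 replicate 1 of TBK1-WT ∆control both passed: Lta at 1.69, adjusted p = 0.0372 (also called at 1.25, adjusted p = 0.0376, with a term for the nuclear RNA level, and at 1.78, adjusted p = 0.0348, without both high-level R837 libraries) and Ltb at -1.03, adjusted p = 0.0265. Without untreated replicate 2 of TBK1-WT ∆control, Lta also passed in the untreated libraries labelled TBK1-cKD ∆IKKe (adjusted p = 0.0346).

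**Figure D3:**
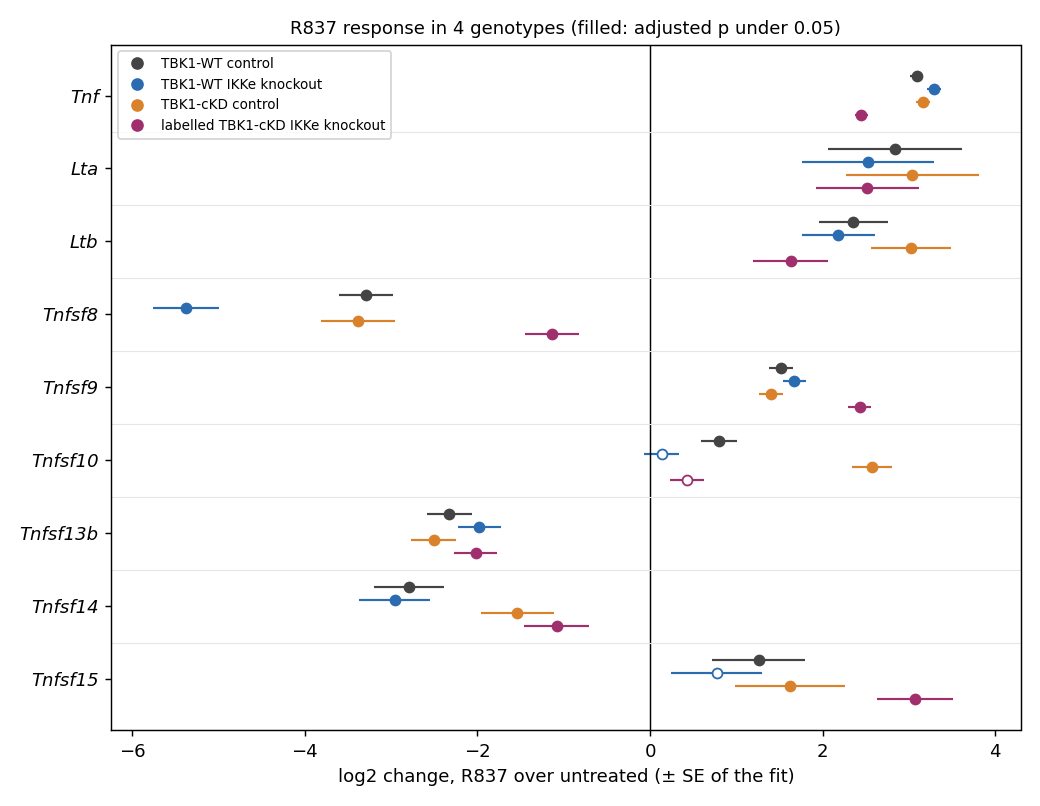
Log2 change with R837 in the 4 genotypes, one row per ligand, with SE of the fit as error bars and filled points for adjusted p under 0.05. Tnf and Tnfsf9 have the smallest errors, and Tnfsf8 falls least in the group labelled TBK1-cKD ∆IKKe (-1.14).

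Tnfsf9 encodes the ligand of the costimulatory receptor 4-1BB (Tnfrsf9). In TBK1-WT ∆control the 3 untreated libraries held 5.81, 6.43 and 6.23 CPM of Tnfsf9 and the 3 R837 libraries 19.2, 16.6 and 17.1 CPM. The TBK1-WT ∆IKKe libraries held 6.90, 8.02 and 7.10 CPM untreated and 23.8, 23.0 and 23.0 CPM with R837. All R837 libraries of a genotype exceeded its untreated libraries. Libraries of TBK1-cKD ∆control gave 4.85, 8.21 and 7.27 CPM of Tnfsf9 untreated and 16.9, 18 and 18.1 CPM with R837. Those labelled TBK1-cKD ∆IKKe gave 6.48, 6.99 and 8.76 CPM and 39.8, 38.0 and 42.2 CPM. The rise with R837 was 1.52 ± 0.13, adjusted p = 3.08e-09 in TBK1-WT ∆control and 2.43 ± 0.13, adjusted p = 1.02e-12 in the group labelled TBK1-cKD ∆IKKe, 5.39-fold. Untreated genotypes did not pass the test against TBK1-WT ∆control. With R837 the group labelled TBK1-cKD ∆IKKe was 2.27-fold above TBK1-WT ∆control (1.18 ± 0.13, adjusted p = 1.96e-07), and above TBK1-cKD ∆control by 1.18 ± 0.13, adjusted p = 3.35e-07 and TBK1-WT ∆IKKe by 0.78 ± 0.13, adjusted p = 5.4e-05. Its R837 response was larger than that of TBK1-WT ∆control by 0.91 ± 0.19, adjusted p = 0.0012, and the test of whether IKKe genotype acted differently in the 2 TBK1 genotypes after R837 gave 0.78 ± 0.18, adjusted p = 0.00467. TBK1-WT ∆IKKe after R837 differed from TBK1-WT ∆control by 0.40 ± 0.13, adjusted p = 0.135, and passed with a term for the nuclear RNA level (0.45, adjusted p = 0.0241).

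Tnfsf15, which encodes TL1A, a ligand of death receptor 3, stood out in 1 group. In TBK1-WT ∆control the 3 untreated libraries held 0.341, 0.473 and 0.0989 CPM of Tnfsf15 and the 3 R837 libraries 0.978, 0.723 and 0.557 CPM. The TBK1-WT ∆IKKe libraries held 0.358, 0.436 and 0.770 CPM untreated and 0.828, 1.26 and 0.604 CPM with R837. The R837 libraries of TBK1-WT ∆control and TBK1-WT ∆IKKe overlapped each other. Libraries of TBK1-cKD ∆control gave 0.155, 0.363 and 0.111 CPM of Tnfsf15 untreated and 0.821, 0 and 0.908 CPM with R837. Those labelled TBK1-cKD ∆IKKe gave 0.895, 0.669 and 0.764 CPM and 6.66, 6.27 and 6.84 CPM. Every R837 library labelled TBK1-cKD ∆IKKe lay above every other library, and replicate 3, of the high nuclear RNA level, lay with the other replicates. R837 replicate 2 of TBK1-cKD ∆control was at 0 counts. With R837 this group was 8.52-fold above TBK1-WT ∆control (3.09 ± 0.44, adjusted p = 9.49e-06), above TBK1-cKD ∆control by 3.37 ± 0.46, adjusted p = 7.47e-06 and above TBK1-WT ∆IKKe by 2.88 ± 0.44, adjusted p = 3.02e-05. The interaction of TBK1 and IKKe after R837 was 3.17 ± 0.68, adjusted p = 0.00279. The R837 response was 3.07 ± 0.44, adjusted p = 2.93e-06 in this group, and its difference from that of TBK1-WT ∆control was 1.81 ± 0.71, adjusted p = 0.0925, and 2.15, adjusted p = 0.0475, without untreated replicate 3 of TBK1-WT ∆control. In TBK1-WT ∆control the response was 1.26 ± 0.54, adjusted p = 0.0489 and was not called without R837 replicate 1 or 2 or untreated replicate 1 or 3 (adjusted p = 0.0725 to 0.163). In TBK1-cKD ∆control it was 1.62 ± 0.64, adjusted p = 0.0301 where treated and untreated libraries overlapped, and was not called without R837 or untreated replicate 1 or 3 (adjusted p = 0.0914 to 0.129). Untreated, the libraries labelled TBK1-cKD ∆IKKe were above TBK1-cKD ∆control by 1.93 ± 0.61, adjusted p = 0.0437, in the comparison added after the values were seen, a call lost without replicate 1 or 3 of TBK1-cKD ∆control or any 1 replicate of the other group (adjusted p = 0.0693 to 0.191).

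Tnfsf8, which encodes the ligand of CD30, fell with R837. In TBK1-WT ∆control the 3 untreated libraries held 2.36, 2.48 and 2.34 CPM of Tnfsf8 and the 3 R837 libraries 0.147, 0.328 and 0.278 CPM. The TBK1-WT ∆IKKe libraries held 3.05, 2.96 and 3.62 CPM untreated and 0.0720, 0.0393 and 0.107 CPM with R837. The fall was 9.76-fold in TBK1-WT ∆control and 41.5-fold in TBK1-WT ∆IKKe. Libraries of TBK1-cKD ∆control gave 0.975, 0.981 and 0.928 CPM of Tnfsf8 untreated and 0.0586, 0 and 0.189 CPM with R837. Those labelled TBK1-cKD ∆IKKe gave 0.678, 1.12 and 1.03 CPM and 0.530, 0.373 and 0.375 CPM. The log2 changes were -3.29 ± 0.31, adjusted p = 9.5e-09 for TBK1-WT ∆control, -5.38 ± 0.39 for TBK1-WT ∆IKKe, -3.38 ± 0.43 in TBK1-cKD ∆control and -1.14 ± 0.31, adjusted p = 0.00319 in the group labelled TBK1-cKD ∆IKKe. Before R837, both TBK1-cKD groups were already lower than TBK1-WT ∆control, with log2 differences of -1.31 ± 0.26, adjusted p = 0.00288 in TBK1-cKD ∆control and -1.36 ± 0.26, adjusted p = 0.000688 in the untreated libraries labelled TBK1-cKD ∆IKKe. Untreated marker sums moved with these groups: for TBK1-WT ∆control, TBK1-cKD ∆control and the labelled group in turn, mast cell markers summed to 3.26 to 3.70, 1.41 to 2.50 and 1.0 to 1.30 CPM. Neutrophil markers summed to 1.88 to 2.41, 0.266 to 0.618 and 0.335 to 0.382 CPM, and stromal markers to 36.8 to 45.6, 22.8 to 23.5 and 13.7 to 19.7 CPM. Mast cell markers were also lower with R837, at 0 to 0.438 CPM over its 12 libraries. Of these 4 markers only Kit passed the count filter, at 0.966 to 3.53 CPM untreated and 0 to 0.340 CPM with R837. Cpa3, Mcpt8 and Ms4a2 were each at most 0.142 CPM in any library. Neutrophil sums ranged over 0.266 to 2.41 CPM untreated and 1.06 to 4.33 CPM with R837. Stromal sums ranged over 13.7 to 46.0 CPM untreated and 25.1 to 48.0 CPM with R837. The part of any of these markers in the Tnfsf8 results was not tested. With R837, libraries labelled TBK1-cKD ∆IKKe exceeded TBK1-cKD ∆control by 2.20 ± 0.49, adjusted p = 0.00135 (3.34 without replicate 3 of the latter) and TBK1-WT ∆IKKe by 2.46 ± 0.50, adjusted p = 0.000645, while the difference from TBK1-WT ∆control was 0.79 ± 0.38, adjusted p = 0.128. Their response differed from that of TBK1-WT ∆control by 2.15 ± 0.46, adjusted p = 0.00185, and the interaction was 3.86 ± 0.73, adjusted p = 0.000906. After R837 the TBK1-cKD ∆control difference from TBK1-WT ∆control was -1.41 ± 0.53, adjusted p = 0.103, and -2.55, adjusted p = 0.0249, without its replicate 3. These R837 groups rest on 0 to 14 counts a library.

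Tnfsf14 (LIGHT, a ligand of the herpesvirus entry mediator and the lymphotoxin beta receptor) and Tnfsf13b (BAFF, a survival factor of B cells) also fell with R837 in all 4 genotypes. Tnfsf13b ranged over 3.29 to 4.71 CPM untreated and 0.469 to 1.37 CPM with R837, with a change of -2.32 ± 0.26, adjusted p = 9.47e-08 in TBK1-WT ∆control and of -1.98 ± 0.25, -2.51 ± 0.26 and -2.02 ± 0.25 in the other genotypes. No genotype comparison of Tnfsf13b passed the test, but without R837 replicate 3 of TBK1-cKD ∆control the libraries labelled TBK1-cKD ∆IKKe exceeded that group after R837 by 1.06, adjusted p = 0.00575. Tnfsf14 ranged over 1.26 to 3.57 CPM untreated and 0.205 to 1.44 CPM with R837, and changed by -2.79 ± 0.41, adjusted p = 4.61e-06 for TBK1-WT ∆control, -2.96 ± 0.41 for TBK1-WT ∆IKKe, -1.54 ± 0.43 in TBK1-cKD ∆control and -1.08 ± 0.38 in the group labelled TBK1-cKD ∆IKKe. R837 replicate 2 of TBK1-cKD ∆control held 26 counts of Tnfsf14, against 7 and 8 in the other replicates. Without it the response of Tnfsf14 in TBK1-cKD ∆control was -2.70, adjusted p = 1.09e-06, and without R837 replicate 1 it was -1.02, adjusted p = 0.0344. With a term for the nuclear RNA level, the TBK1-cKD ∆control response of Tnfsf14 was -1.01, adjusted p = 0.153 and that of the group labelled TBK1-cKD ∆IKKe -0.75, adjusted p = 0.114. The latter call was also lost without R837 replicate 1 or untreated replicate 1 or 3 of that group (adjusted p = 0.0541 to 0.0694). The group's response differed from that of TBK1-WT ∆control by 1.71 ± 0.56, adjusted p = 0.041, a call lost in 9 of the 12 fits that left out 1 library (adjusted p = 0.0534 to 0.107 in those). After R837 Tnfsf14 in the libraries labelled TBK1-cKD ∆IKKe differed from TBK1-WT ∆control by 1.13 ± 0.45, adjusted p = 0.0647, and passed with the nuclear RNA term (adjusted p = 0.0324), by DESeq2 (adjusted p = 0.0309) and without R837 replicate 1 of the labelled group (adjusted p = 0.0441). Without R837 replicate 2 of TBK1-cKD ∆control, the libraries labelled TBK1-cKD ∆IKKe exceeded TBK1-cKD ∆control after R837 by 1.85, adjusted p = 0.000704, and the interaction was 1.74, adjusted p = 0.0224.

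Tnfsf10, which encodes the death ligand TRAIL, differed by genotype before R837. In TBK1-WT ∆control the 3 untreated libraries held 2.62, 3.66 and 3.10 CPM of Tnfsf10 and the 3 R837 libraries 5.01, 4.96 and 6.41 CPM. The TBK1-WT ∆IKKe libraries held 3.83, 2.96 and 5.42 CPM untreated and 3.74, 5.54 and 4.26 CPM with R837. In TBK1-WT ∆control every R837 library exceeded every untreated one, and in TBK1-WT ∆IKKe the groups overlapped. Libraries of TBK1-cKD ∆control gave 1.37, 1.16 and 1.34 CPM of Tnfsf10 untreated and 6.92, 6.38 and 9.84 CPM with R837. Those labelled TBK1-cKD ∆IKKe gave 5.10, 4.61 and 5.00 CPM and 7.6, 5.89 and 6.32 CPM. Untreated TBK1-cKD ∆control was lower than TBK1-WT ∆control (-1.26 ± 0.23, adjusted p = 0.00166). The untreated libraries labelled TBK1-cKD ∆IKKe exceeded it by 1.92 ± 0.23, adjusted p = 2.47e-06, in the comparison added after the values were seen. Of the 11 lymphocyte markers, Cd4 held 6.14 to 17.3 CPM over the untreated libraries and each other marker at most 1.49 CPM. Lymphocyte marker sums, untreated, were 9.28 to 10.3 CPM in TBK1-WT ∆control, 7.0 to 8.46 CPM in TBK1-cKD ∆control and 16 to 18.5 CPM in the libraries labelled TBK1-cKD ∆IKKe, and their part in these differences was not tested. The latter libraries exceeded TBK1-WT ∆control by 0.65 ± 0.20, adjusted p = 0.0371, and this call was lost without any 1 of replicates 1, 2 or 3 of that group or of replicates 1 or 3 of TBK1-WT ∆control (adjusted p = 0.0631 to 0.192). R837 raised Tnfsf10 by 0.80 ± 0.20, adjusted p = 0.00197 in TBK1-WT ∆control and 2.57 ± 0.23, adjusted p = 2.93e-09 in TBK1-cKD ∆control, 5.95-fold, the responses differing by 1.77 ± 0.31, adjusted p = 0.0069. Changes of 0.13 ± 0.21, adjusted p = 0.578 in TBK1-WT ∆IKKe and 0.43 ± 0.20, adjusted p = 0.0658 in the group labelled TBK1-cKD ∆IKKe did not pass, though the latter did without both R837 libraries of the high nuclear RNA level (0.52, adjusted p = 0.0352). After R837 no genotype passed against TBK1-WT ∆control, and the libraries labelled TBK1-cKD ∆IKKe exceeded TBK1-WT ∆IKKe by 0.55 ± 0.20, adjusted p = 0.0451, a call lost without replicate 1 or 3 of either group (adjusted p = 0.0678 to 0.18).

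**Figure D4:**
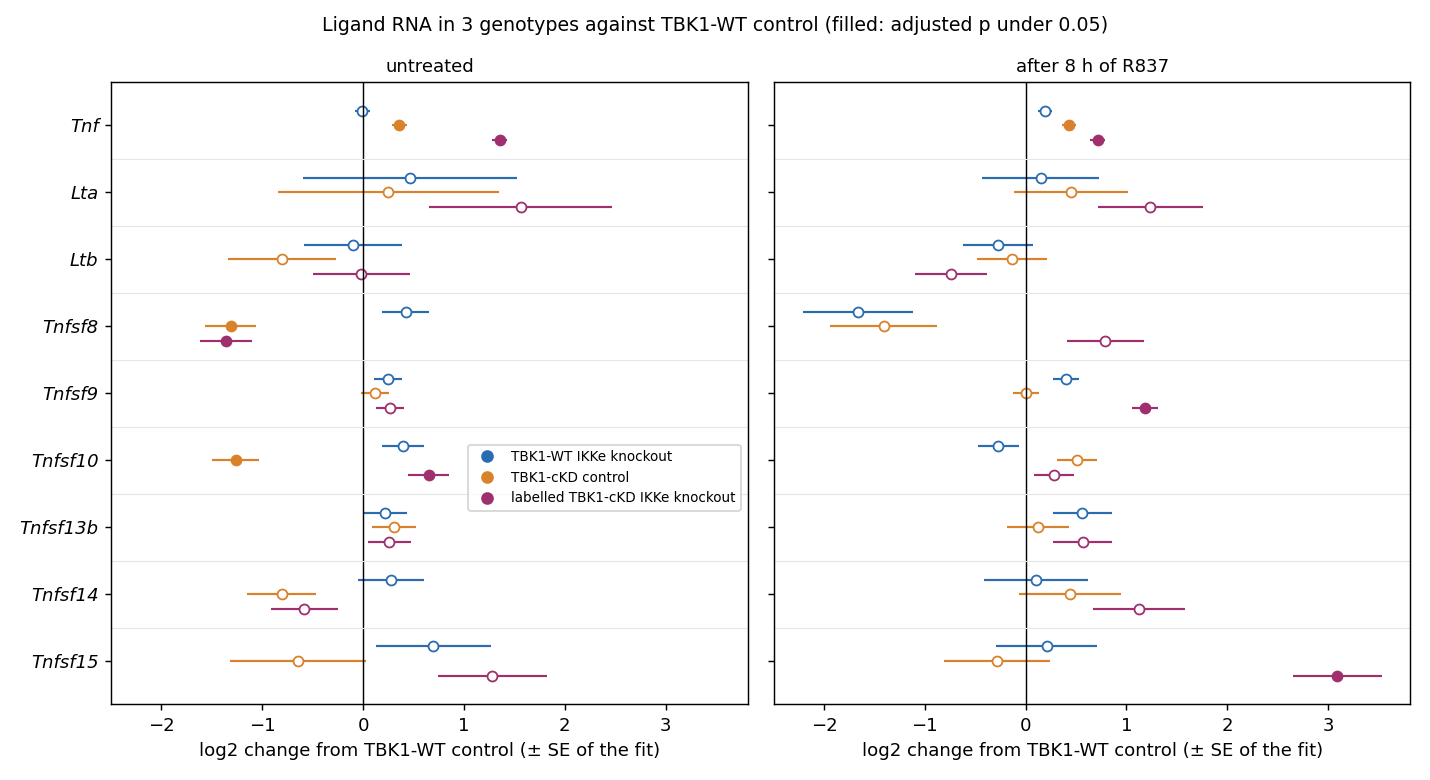
Log2 difference from TBK1-WT ∆control of 3 genotypes, untreated (left) and after 8 h of R837 (right), with SE of the fit as error bars and filled points for adjusted p under 0.05. Tnfsf15 and Tnfsf9 are higher after R837 in the group labelled TBK1-cKD ∆IKKe (3.09 and 1.18), and Tnf in both TBK1-cKD groups on both sides.

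Counting members against TBK1-WT ∆control, which all these comparisons share, TBK1-WT ∆IKKe had 0 called untreated (edgeR, 0 at an unadjusted p under 0.05 and 0 by DESeq2, background 0%) and 0 after R837 (3 at an unadjusted p under 0.05, 0 by DESeq2, background 1.85%, 1.14% higher and 0.708% lower). TBK1-cKD ∆control had 1 higher and 2 lower untreated (background 5.05%, 2.4% higher and 2.65% lower) and 1 higher after R837 (background 8.89%, 4.48% higher and 4.41% lower). The group labelled TBK1-cKD ∆IKKe had 2 higher and 1 lower untreated (background 13.6%, 8.52% higher and 5.1% lower) and 3 higher after R837 (background 32.2%, 16.7% higher and 15.5% lower). Directly against TBK1-cKD ∆control after R837 it had 4 higher (background 34.5%, 18.3% higher and 16.2% lower), and against TBK1-WT ∆IKKe 5 higher (background 30.6%, 16.5% higher and 14.2% lower). Untreated against TBK1-cKD ∆control it had 3 higher (background 11.4%, 7.8% higher and 3.58% lower). The R837 response differed from that of TBK1-WT ∆control in 0 members for TBK1-WT ∆IKKe (2 at an unadjusted p under 0.05, 0 by DESeq2, background 0.245%, 0.129% higher and 0.116% lower), 1 higher for TBK1-cKD ∆control (background 0.879%, 0.674% higher and 0.204% lower) and 3 higher and 1 lower for the group labelled TBK1-cKD ∆IKKe (background 17.3%, 7.38% higher and 9.96% lower). The interaction after R837 was called for 3 members, all higher (background 22.2%, 13.3% higher and 8.9% lower).

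Over the 8 group means the pattern of each gene was compared with that of 14656 other tested genes by Pearson r in log2 CPM, as a description without a test, since all 8 points share the split by treatment. Tnfsf15 was most like Bst2 (r = 0.989) and Wipi2 (r = 0.978), and Tnfsf10 like Ifit3b (r = 0.970) and Ifit3 (r = 0.970). A total of 16 genes passed r = 0.95 for Tnfsf15 and 12 for Tnfsf10, against 1479 for Tnf. Tnf was most like Fbxo42 (r = 0.999) and Col18a1 (r = 0.998), Lta like Gpr137 (r = 0.997) and Manbal (r = 0.995), and Ltb like Sgk3 (r = 0.993) and Gm11633 (r = 0.990). Tnfsf9 was most like Dgat2 (r = 0.998) and Inafm2 (r = 0.997), Tnfsf8 like Gm47694 (r = 0.990) and Tcf4 (r = 0.990), Tnfsf14 like Cd300lf (r = 0.997) and Prr18 (r = 0.994), and Tnfsf13b like Gm48837 (r = 0.996) and 3300005D01Rik (r = 0.995). The ratio of the highest to the lowest group mean was largest for Tnfsf8 (44.2) and Tnfsf15 (31.4) and smallest for Tnfsf10 (5.98). In the order of the 8 groups, 5 of 7 neighbouring pairs had no overlapping libraries for Tnf, 4 for Tnfsf8, 3 for Tnfsf9 and Tnfsf14, 2 for Tnfsf13b and 1 each for Lta, Ltb, Tnfsf10 and Tnfsf15. For each gene the groups were first sorted by their own means, and the same count over all tested genes was not made. These counts therefore do not show whether the members are unusual.

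The pathway lists were chosen with earlier results known, and their counts are descriptions beside the shares of all genes above. Of 18 tested of 26 receptor genes, 8 rose and 4 fell with R837 in TBK1-WT ∆control (median 0.04, all genes -0.04). Tnfrsf9, the receptor of the Tnfsf9 product, rose by 7.12 ± 0.25, Cd40 by 4.10 ± 0.18, the death receptor Fas by 3.75 ± 0.14 and the TNF receptor Tnfrsf1b by 3.11 ± 0.08, where values are log2. After R837 the group labelled TBK1-cKD ∆IKKe had 6 receptors higher and 2 lower than TBK1-WT ∆control, with Cd40 higher by 1.67 ± 0.16 and Tnfrsf8, the receptor of the Tnfsf8 product, by 1.17 ± 0.18. In TBK1-WT ∆IKKe, Tnfrsf9 was the only receptor called (1.0 ± 0.15), and in TBK1-cKD ∆control 3 were lower, among them Tnfrsf14 (-1.0 ± 0.25) and Tnfrsf11a (-0.42 ± 0.11). Of the 9 other ligands, 3 were tested: Tnfsf4 rose (2.03 ± 0.72) and Tnfsf13 (-2.01 ± 0.17) and Tnfsf12 (-1.89 ± 0.07) fell. Both of the latter overlap the antisense gene Tnfsf13os and the read-through gene Tnfsfm13, so their values are uncertain. Tnfsf12 was higher in TBK1-cKD ∆control than TBK1-WT ∆control both untreated (0.28 ± 0.06) and after R837 (0.39 ± 0.07). The difference in its R837 response between these genotypes did not pass the edgeR test (0.12 ± 0.09, adjusted p = 0.657). Tnfsf4 was near the floor, with means in TBK1-WT ∆control of 0.112 CPM untreated and 0.475 CPM with R837. Its rise was also called in TBK1-cKD ∆control (2.50 ± 0.72). By the edgeR test it was not called in TBK1-WT ∆IKKe (adjusted p = 0.279) or the group labelled TBK1-cKD ∆IKKe (adjusted p = 0.724). Cd40lg had 0 counts in all 24 libraries.

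Among 16 genes of proximal signalling, 10 rose and 5 fell with R837 in TBK1-WT ∆control (median 0.28): the adaptor Traf1 by 3.81 ± 0.08, the ubiquitin ligase Birc3 by 2.91 ± 0.08, the caspase-8 regulator Cflar by 1.75 ± 0.10 and Traf2 by 1.38 ± 0.06. After R837, 8 were higher and 1 lower in the group labelled TBK1-cKD ∆IKKe than in TBK1-WT ∆control, with Traf1 at 1.75 ± 0.07 and Traf5 at 0.93 ± 0.09. Traf1 was also higher in TBK1-WT ∆IKKe (0.48 ± 0.07), and in TBK1-cKD ∆control Traf5 was higher (0.40 ± 0.09) and the deubiquitinase Otulin lower (-0.24 ± 0.07). Of 9 genes for shedding and trafficking, 7 rose and 0 fell with R837 (median 0.59). They included the TNF-cleaving protease Adam17 (1.43 ± 0.05), its partners Rhbdf2 (1.89 ± 0.05) and Frmd8 (0.68 ± 0.09), and its inhibitor Timp3 (0.91 ± 0.35). Rhbdf2 was higher than in TBK1-WT ∆control after R837 in TBK1-WT ∆IKKe (0.29 ± 0.05), TBK1-cKD ∆control (0.25 ± 0.05) and the group labelled TBK1-cKD ∆IKKe (1.02 ± 0.05), where the protease Furin was also higher (0.98 ± 0.06).

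Of 11 genes for mRNA decay and translation, which act on transcripts such as that of Tnf, 4 rose and 6 fell with R837 in TBK1-WT ∆control (median -0.43). The RNase Zc3h12a rose by 3.66 ± 0.07, N4bp1 by 2.51 ± 0.06 and Zfp36, which encodes tristetraprolin, by 1.49 ± 0.07, and Zfp36l1 changed by -2.06 ± 0.10. After R837, 4 were higher and 1 lower in the group labelled TBK1-cKD ∆IKKe than in TBK1-WT ∆control, with Zfp36l1 at 0.78 ± 0.10 and N4bp1 at 0.66 ± 0.06. In TBK1-cKD ∆control Zfp36l1 was lower (-0.68 ± 0.11), and 0 of 11 were called in TBK1-WT ∆IKKe.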

How the data were processed

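Single-end RNA-seq libraries from 24 macrophage cultures were analysed. Per the submitters' processing notes the authors aligned reads with GSNAP to GRCm38, with no version given. The deposited files hold raw counts per gene over exons and RPKM values, made by the authors; the counting tool is not given in the sources used here. No column of sample values was left unused (0). Groups came from the genotype and treatment labels. From the counts, edgeR 4.0.16 (R 4.3.3, limma 3.58.1) was run with TMM scaling, a filter keeping 14681 genes (filterByExpr, minimum count 10, minimum total 15), 1 mean per group over all 24 libraries (16 residual degrees of freedom, common coefficient of variation 0.116) and quasi-likelihood tests, with Benjamini-Hochberg adjustment over all genes tested and a threshold of 0.05. SE is the log2 change over the square root of F. CPM uses TMM library sizes, and RPKM serves only to compare genes. Rows without a gene symbol held 0.0187% of counts. The script was tested on simulated data. The fit treats all libraries as independent. Which libraries share a mouse is not stated, so p-values measure only the spread between these libraries.

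The members and gene lists were chosen with earlier results of these data known. Named list genes are up to 4 with the largest R837 response in TBK1-WT ∆control among those called without overlap, and up to 2 with the largest change per genotype after R837. Alternatives were DESeq2 1.42.0, relative log expression scaling, no count filter, each library left out, a term for the nuclear RNA level, and fits with or without the libraries of the high level. Figures were drawn with matplotlib 3.10.9.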

Additional observations from a re-analysis of the deposited data

Results flagged for a closer look

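Several ligands had an R837 response that differed between genotypes in a test of the difference itself (edgeR's quasi-likelihood test, log2, 3 libraries a group). Between the group labelled TBK1-cKD ∆IKKe and TBK1-WT ∆control the difference in response was -0.64 for Tnf, 2.15 for Tnfsf8, 0.91 for Tnfsf9 and 1.71 for Tnfsf14. Between TBK1-cKD ∆control and TBK1-WT ∆control it was 1.77 for Tnfsf10. After R837, the effect of the ∆IKKe label differed between the TBK1 genotypes by 3.86 for Tnfsf8, 0.78 for Tnfsf9 and 3.17 for Tnfsf15. This last test compares levels with R837 and not responses, and Tnfsf15 is flagged by it only. Of all genes, 17.3%, 0.879% and 22.2% were called in these comparisons in turn. Tnfsf8 rests on few counts after R837, and the Tnfsf14 difference was lost when most single libraries were left out.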

How the results depend on the processing

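Of 1881 member values under alternatives, 1823 kept their side of the threshold, 38 lost the call and 20 gained it. Among values called in the main fit or the alternative, 0 changed direction. Values called in neither fit were not checked for direction, and some changed sign, such as Lta in untreated TBK1-cKD ∆control against TBK1-WT ∆control (0.25, lowest -0.39). Relative log expression scaling and the absence of a count filter changed no member call. After R837, members called in TBK1-WT ∆IKKe against TBK1-WT ∆control went from 0 to 2 once a term for the nuclear RNA level was added and to 1 without the R837 libraries of the high level; the cause was not tested. Members called in the group labelled TBK1-cKD ∆IKKe against TBK1-WT ∆control went from 3 to 5 with that term. Over fits leaving out 1 library this count was 3 to 5, with 5 without R837 replicate 1 of TBK1-WT ∆control, and that of TBK1-cKD ∆control against TBK1-WT ∆control was 1 to 2, with 2 without R837 replicate 3 of TBK1-cKD ∆control. No paired analysis was possible because the labels give no replicate numbers and do not tie any library to one of the mice.

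Counts of all genes called moved more. With the level as a term they went from 742 to 2042 for untreated TBK1-cKD ∆control, from 2000 to 3752 for the untreated group labelled TBK1-cKD ∆IKKe (1670 to 3159 against TBK1-cKD ∆control), and from 272 to 519 for TBK1-WT ∆IKKe after R837 (461 by DESeq2). Differences in response went from 36 to 146, 129 to 442 and 2546 to 4420 for the same term in TBK1-WT ∆IKKe, TBK1-cKD ∆control and the labelled group. For untreated TBK1-WT ∆IKKe the count was 0 (422 at an unadjusted p under 0.05, 1 by DESeq2) and up to 5 without 1 library. Leaving out 1 library also lowered counts, and with them the shares of all genes printed beside the members. The count fell from 742 to 392 (without untreated replicate 2 of TBK1-cKD ∆control), 460 (its replicate 3) or 418 (untreated replicate 1 of TBK1-WT ∆control). For TBK1-WT ∆IKKe after R837 it fell from 272 to 125 or 143 (without its replicate 1 or 2) or 167 (R837 replicate 1 of TBK1-WT ∆control), and for TBK1-cKD ∆control from 1305 to 774 without that same library. For the interaction it fell from 3253 to 1939 without that library, 2090 without R837 replicate 3 labelled TBK1-cKD ∆IKKe and 2104 without R837 replicate 2 of TBK1-WT ∆IKKe. Differences in response fell from 36 to between 17 and 22 for TBK1-WT ∆IKKe (99 by DESeq2) and from 129 to between 47 and 83 for TBK1-cKD ∆control (252 by DESeq2), and rose to 115 and 382 without both high-level R837 libraries. Low counts of Lta, Ltb, Tnfsf8 and Tnfsf15 limit their precision. The same holds with R837 for Tnfsf13b (9 to 39 counts a library) and Tnfsf14 (7 to 41 counts a library).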
